A study of Gallus gallus with 20 samples.

Results

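ZIC1, ZIC2, ZIC4 and ZIC5 encode zinc finger transcription factors and lie as neighbouring pairs, ZIC2 with ZIC5 on chromosome 1 and ZIC4 with ZIC1 on chromosome 9. These 4 genes, of 17839 protein-coding genes placed on assembled chromosomes in the RefSeq table of GRCg7b, were chosen by the highest fold in the EZH2 peak list, which lay at ZIC5. The EZH2 values are therefore given as a description. The tissue was the lens of chicken (Gallus gallus) embryos at embryonic day 4.5, dissected and combined into 3 pools of about 44 lenses, from which 100000 nuclei entered each reaction. Chromatin was profiled by CUT&RUN, in which an antibody guides a nuclease to cut out the DNA around its target. The 20 libraries comprised 3 for each Polycomb antibody (AEBP2, JARID2, EZH2, SUZ12), 3 for each histone mark (H3K27me3, H3K4me3) and 2 for IgG, an antibody without a chromatin target. All groups shared stage and tissue and differed in the antibody, used at a dilution of 1 in 25 for AEBP2, 1 in 100 for EZH2 and SUZ12, and 1 in 50 for the others. Each antibody other than IgG has 1 deposited peak list for its 3 libraries, so no value below has a replicate error and no test was possible.

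Polycomb repressive complex 2 (PRC2) methylates histone H3 at lysine 27, and its product H3K27me3 marks silenced developmental genes. EZH2 is the catalytic subunit and SUZ12 a core scaffold subunit, while JARID2 and AEBP2 are accessory subunits. H3K4me3 marks promoters that are active or poised. ZIC proteins carry C2H2 zinc fingers related to those of GLI proteins and act in the dorsal neural tube, the neural crest and the paraxial mesoderm. In humans and mice ZIC1 stands beside ZIC4 and ZIC2 beside ZIC5, in opposite orientations, and losses of ZIC2 in humans are a cause of holoprosencephaly.

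In GRCg7b, ZIC2 spans chr1:144295453-144300548 and ZIC5 chr1:144307023-144310135, with 6474 bp between them that hold 1 further protein-coding gene, LOC121109302. ZIC4 spans chr9:11582188-11599990 and ZIC1 chr9:11601968-11607494, and 1977 bp separate them. The gene table gives no strand, so the ends that look toward the partner gene are called facing ends and the others outer ends. A gene counted as carrying a mark when a peak overlapped the 1 kb on either side of an end.

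The ZIC genes stood inside wide H3K27me3 and EZH2 territories. H3K27me3 peaks were found at the ends of 4 of 4 ZIC genes, against 26% of all protein-coding genes. EZH2 peaks were at 4 of 4, against 59.3% of all genes, a count that the choice of the genes partly fixes. SUZ12 was at 4 of 4, against 64.5%, and JARID2 at 4 of 4, against 43.2%. The SUZ12 count fell to 2 of 4 with windows of 500 bp. Where the highest point of a peak had to lie inside the window, the EZH2 and SUZ12 counts fell to 2 of 4. The H3K27me3 count then fell to 3 of 4. The shares of all genes given here belong to windows of 1 kb with any overlap, so the changed counts have no share beside them. H3K4me3 was at 2 of 4, ZIC1 and ZIC2, against 57.2% of all genes. AEBP2 was at 2 of 4, ZIC2 and ZIC5, against 37.1%. With 4 genes in 2 neighbourhoods, these counts are few and not independent.

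Each pair thus held 1 gene with both marks and 1 gene with H3K27me3 alone. ZIC1 and ZIC2 had both marks, a state found at 12% of all genes, while ZIC4 and ZIC5 had H3K27me3 without H3K4me3. ZIC2 had peaks of all 6 lists at its ends, as did 4.47% of all genes. Its AEBP2 peak was weak, with a fold of 2.64 that was exceeded at 72.1% of genes with AEBP2 at an end. That peak no longer counted with lists cut to equal size or with peaks under a −log10 q of 5 left out. With windows of 500 bp in place of 1 kb, the H3K4me3 peak of ZIC1 no longer counted and ZIC2 was the remaining gene with H3K4me3. Nuclei of the whole lens were used, so marks on the same chromosome copy and marks in different cells cannot be told apart.

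**Figure D1:**
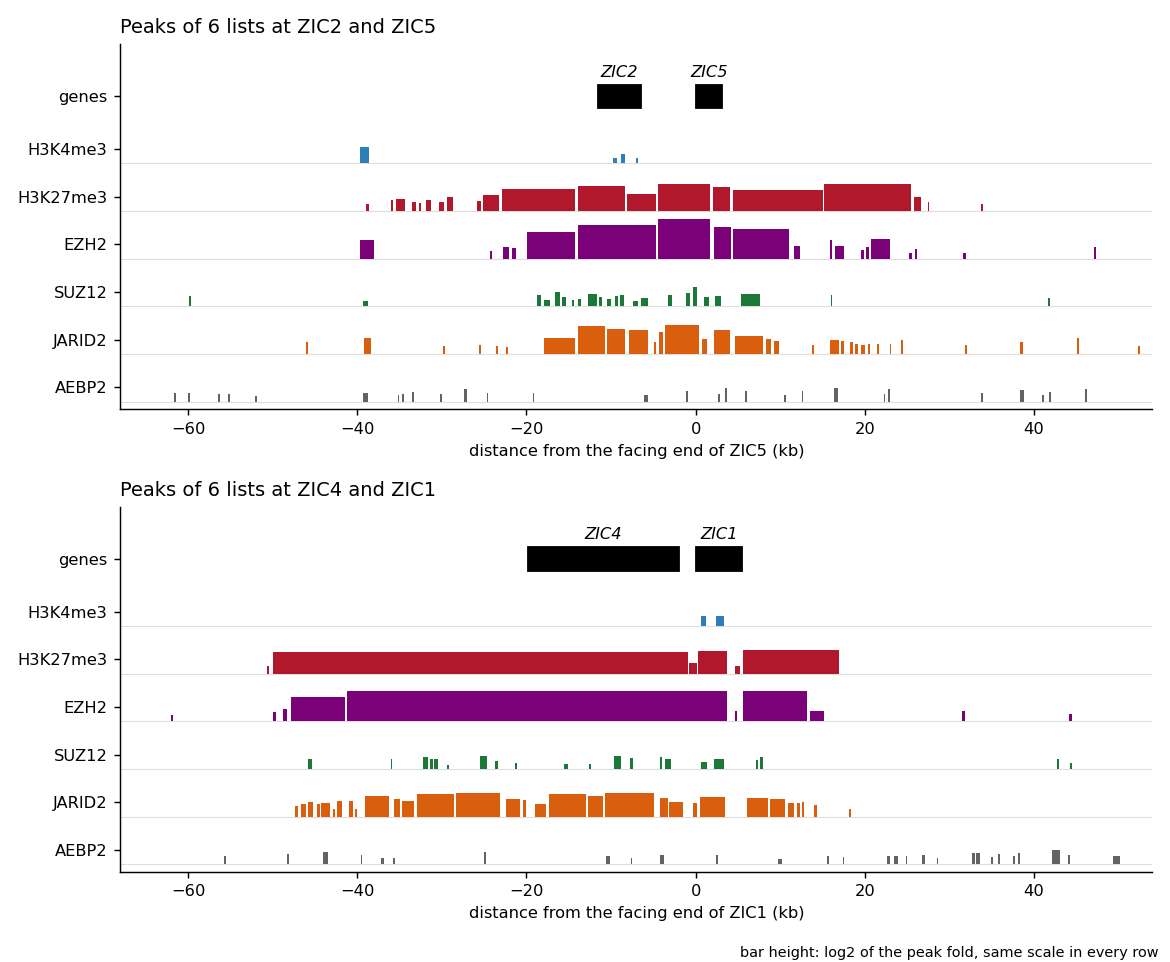
Peaks of the 6 lists within 50 kb of ZIC2 and ZIC5 (upper panel) and of ZIC4 and ZIC1 (lower panel), by distance in kb from the facing end of ZIC5 or ZIC1. Black boxes are the genes, each coloured bar is 1 deposited peak, and its height is the log2 of its fold on 1 scale for all rows. H3K27me3, EZH2 and JARID2 peaks run through both pairs, and the H3K4me3 bars inside the pairs lie in ZIC2 and ZIC1.

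ZIC5 carried the highest EZH2 peak of the series. This peak, chr1:144302619-144308764, was 6146 bp wide and had a fold of 330 over the peak caller's background with a −log10 q of 7858, where q is the caller's p-value adjusted within the list. Next in the EZH2 list stood a peak over HOXD10 to HOXD13 and EVX2 with 291 and a peak at GSX1 with 278, which lie just outside the choice. The highest point of the ZIC5 peak, 144306884, lay 139 bp outside the facing end of ZIC5. The same peak reached over LOC121109302, so by any overlap its fold counted for both genes. Its highest point lay more than 1 kb from both ends of LOC121109302. A second EZH2 peak, with a fold of 101 and its highest point at 144310590, covered the outer end.

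SUZ12, JARID2 and H3K27me3 had their highest points within 57 bp of the EZH2 one, and AEBP2 did not. At the facing end of ZIC5, the highest point of the H3K27me3 peak, with a fold of 50.7, lay 24 bp from that of EZH2. The highest point of the SUZ12 peak, with a fold of 17.2, lay 34 bp away, and that of the JARID2 peak, with a fold of 72.0, lay 57 bp away. The nearest AEBP2 peak had a fold of 4.62 and its highest point 981 bp away. A stronger AEBP2 peak, with a fold of 7.26, lay at the outer end, 29 bp from the highest point of the EZH2 peak there. No H3K4me3 peak touched ZIC5 or the 6474 bp between the genes, and the nearest H3K4me3 highest point was 6813 bp away, inside ZIC2.

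Ranks within each list set these folds against all genes. The SUZ12 fold of ZIC5 ranked 32 and its JARID2 fold ranked 4 among 17839 genes, by the highest fold at a gene end. Its AEBP2 fold ranked 391 and its H3K27me3 fold 310. These are ranks within separate lists, and antibody dilutions differed, so they do not measure amounts of binding.

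ZIC2, the partner of ZIC5, ranked high for EZH2 and JARID2 while carrying weak H3K4me3. Its EZH2 peak, 9234 bp wide with a fold of 144, covered the whole gene and ranked 55 among genes. The highest point of that peak, 144298290, lay inside ZIC2 and not within 1 kb of an end, so under a count of highest points inside the windows ZIC2 had no EZH2 peak. JARID2 had its highest point 8 bp and SUZ12 13 bp from it, with folds of 40.0 and 5.73. At the ends of ZIC2, JARID2 reached a fold of 61.1 at the outer end and 32.6 at the facing end, and the outer value ranked 12 among genes. H3K27me3 reached 41.8 at the outer end and 12.2 at the facing end. The highest points of both outer peaks, 144294364 for JARID2 and 144294271 for H3K27me3, lay just beyond the 1 kb window, and with highest points required inside it the values of ZIC2 were 32.6 and 12.2.

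The H3K4me3 peaks of ZIC2 were short and faint. There were 3 of them inside the gene, with folds of 2.33, 3.72 and 2.27 and widths of 464, 509 and 269 bp. The median over the whole H3K4me3 list was a fold of 9.41 and a width of 1021 bp. The third peak lay at the facing end and made ZIC2 count as marked. Its fold was exceeded at 97.7% of the 10209 genes with H3K4me3 at an end. The strongest of the 3 had its highest point 170 bp from that of EZH2.

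On chromosome 9 a single EZH2 peak spanned ZIC4, the space between the genes and most of ZIC1. This peak, chr9:11560788-11605618, was 44.8 kb wide, the widest of the 25935 EZH2 peaks. Its fold of 87.4 ranked 150 among genes for ZIC1 and ZIC4 alike, since it is 1 value. Its highest point, 11602863, lay inside ZIC1, 895 bp from the facing end, and more than 1 kb from both ends of ZIC4. ZIC4 therefore owed its EZH2 fold to a point in its neighbour, and with highest points required inside the windows ZIC4 had no EZH2 peak. A further EZH2 peak with a fold of 84.1 began at the outer end of ZIC1.

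H3K27me3 followed the same outline there. One H3K27me3 peak of 49.0 kb, the sixth widest of 22875 (rank 6), covered ZIC4 with a fold of 23.6. Its highest point, 11572709, lay outside ZIC4, so with highest points required inside the windows ZIC4 had no H3K27me3 peak. Another, with a fold of 27.3, lay within ZIC1, and its highest point lay 48 bp from that of EZH2. The peak beyond the outer end of ZIC1 had a fold of 31.1, the highest of the pair, with its highest point 5 bp from that of the EZH2 peak there. H3K4me3 had 2 peaks in ZIC1, with folds of 4.61 and 4.12 and widths of 640 and 971 bp. The first of these had its highest point 132 bp from that of EZH2. The H3K4me3 fold of ZIC1 was exceeded at 86.2% of genes with that mark.

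JARID2 and SUZ12 ranked lower within their lists at ZIC1 and ZIC4 than at ZIC5 and ZIC2. JARID2 reached 19.3 at the ends of ZIC1, ranking 224, and 13.3 at those of ZIC4, ranking 418. Inside ZIC4 it was higher, with a fold of 33.6 and a highest point 7248 bp from the facing end. SUZ12 reached 4.09 at ZIC4, ranking 6178, and 2.71 at ZIC1, ranking 9704, and both of these peaks fell outside windows of 500 bp. The strongest SUZ12 peak of the pair, with a fold of 6.97, lay inside ZIC4 and had its highest point at 11592626, near the JARID2 one at 11592742. AEBP2 had no peak at an end of ZIC1 or ZIC4. It had 3 peaks inside ZIC4 and 1 inside ZIC1, so with whole genes and 1 kb on both sides counted all 4 ZIC genes carried AEBP2. Even without the 1 kb on both sides, AEBP2 peaks overlapped 52.5% of all protein-coding genes.

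**Figure D2:**
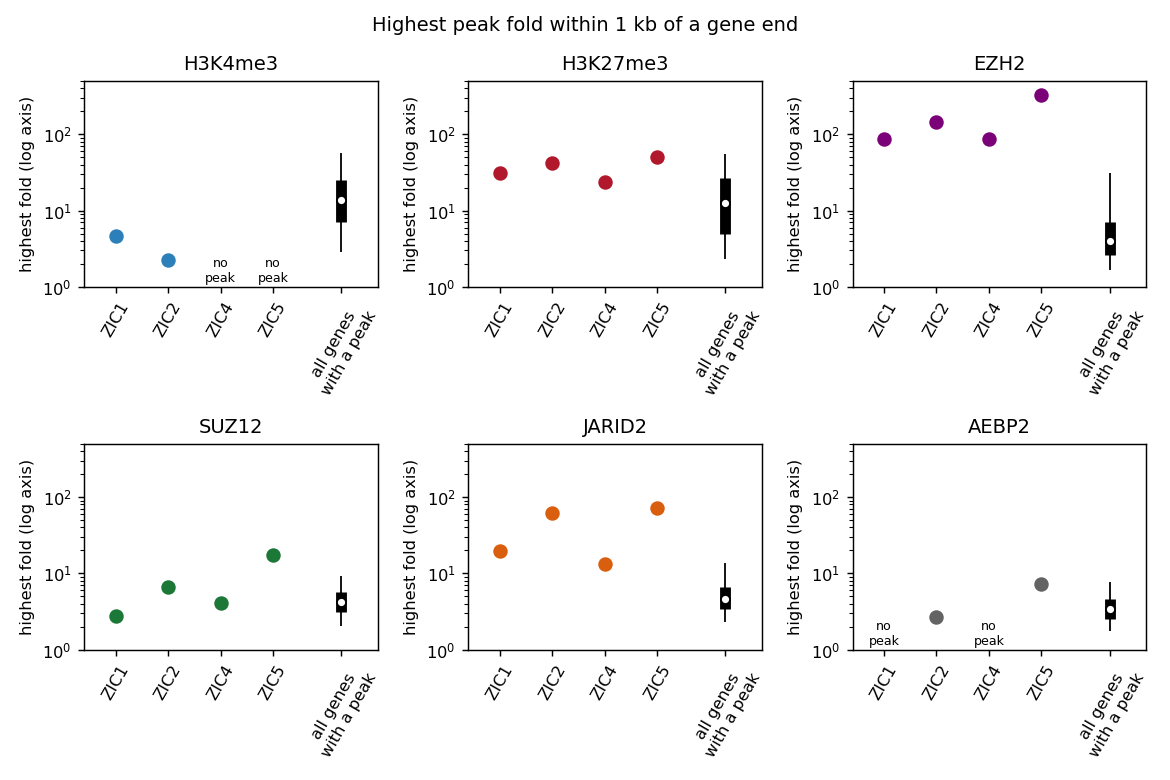
Highest fold of a peak within 1 kb of a gene end, on a log axis, for each ZIC gene (points) and for all protein-coding genes with such a peak (white point, median; thick bar, 25th to 75th percentile; thin line, 5th to 95th percentile). In the EZH2 panel the ZIC genes run between 87.4 and 330, above the thin line of all genes, and in the H3K4me3 panel ZIC1 and ZIC2 lie at 4.61 and 2.27, below the median.

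Genes of the same marking state give a closer comparison than all genes. Among the 2132 genes with both marks, the EZH2 fold of ZIC2 was exceeded at 11 genes and that of ZIC1 at 26. The JARID2 fold of ZIC2 was exceeded at 1 of these genes, and that of ZIC1 at 40. The SUZ12 fold of ZIC2 was exceeded at 342 of them, and that of ZIC1 at 1629, or 76.4%. Among the 2505 genes with H3K27me3 alone, the SUZ12 fold of ZIC5 was exceeded at 1 gene and its JARID2 fold at 2. ZIC4 lay lower in that state, with an EZH2 fold exceeded at 122 genes, a JARID2 fold at 292 and a SUZ12 fold at 692.

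For EZH2 the 4 ZIC genes lay above the 95th percentile of their state, which was 40.1 for both marks and 86.2 for H3K27me3 alone. ZIC4 did so narrowly, at 87.4, the value of the peak it shares with ZIC1 and whose highest point lay in ZIC1. For H3K27me3 itself none of the 4 did, since the 95th percentiles were 47.1 and 61.3. The H3K27me3 fold was exceeded at 8.98% of same-state genes for ZIC5, 7.32% for ZIC2, 13.6% for ZIC1 and 36.3% for ZIC4. For H3K4me3, ZIC1 and ZIC2 lay at the low side of genes with both marks, exceeded at 70.2% and 95% of them. The state and the H3K27me3 value come from the same list, and the EZH2 values chose the genes.

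How much of each gene lay under peaks was then measured. EZH2 peaks covered 100% of ZIC2 and ZIC4, 87.9% of ZIC5 and 70.6% of ZIC1, and the 95th percentile of all genes was 26.8%. Complete cover by EZH2 peaks occurred at 200 genes in all. H3K27me3 covered 100% of ZIC4, 95.5% of ZIC2, 88.9% of ZIC5 and 74.1% of ZIC1, and its 95th percentile was 58.0%. JARID2 covered 85.9% of ZIC4, 85.1% of ZIC2, 64.7% of ZIC5 and 55.3% of ZIC1, and its 95th percentile was 18.2%. These percentiles were taken over genes of every length, and the ZIC genes, between 3113 and 17803 bp long, were not matched for length.

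SUZ12 was patchier within the same territory. It covered 49.3% of ZIC5, 42.8% of ZIC2 and 33.7% of ZIC1, above the 95th percentile of 19.7%, and 15.3% of ZIC4, below it. H3K4me3 covered 29.1% of ZIC1 and 24.4% of ZIC2, below its 95th percentile of 30.6% but far above its median of 1.32%. Higher H3K4me3 cover was found at 5.35% of all genes for ZIC1 and 7.0% for ZIC2. AEBP2 covered between 0% of ZIC2 and 6.33% of ZIC5, and its 95th percentile was 11.4% and its median 0.518%. Higher AEBP2 cover was found at 12.5% of all genes for ZIC5, 13.8% for ZIC4, 20.3% for ZIC1 and 52.5% for ZIC2. Over all chromosomes, AEBP2 peaks covered 5.07% of the sequence, a share near the 5.18% of the ZIC2 and ZIC5 span and the 4.97% of the ZIC4 and ZIC1 span.

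**Figure D3:**
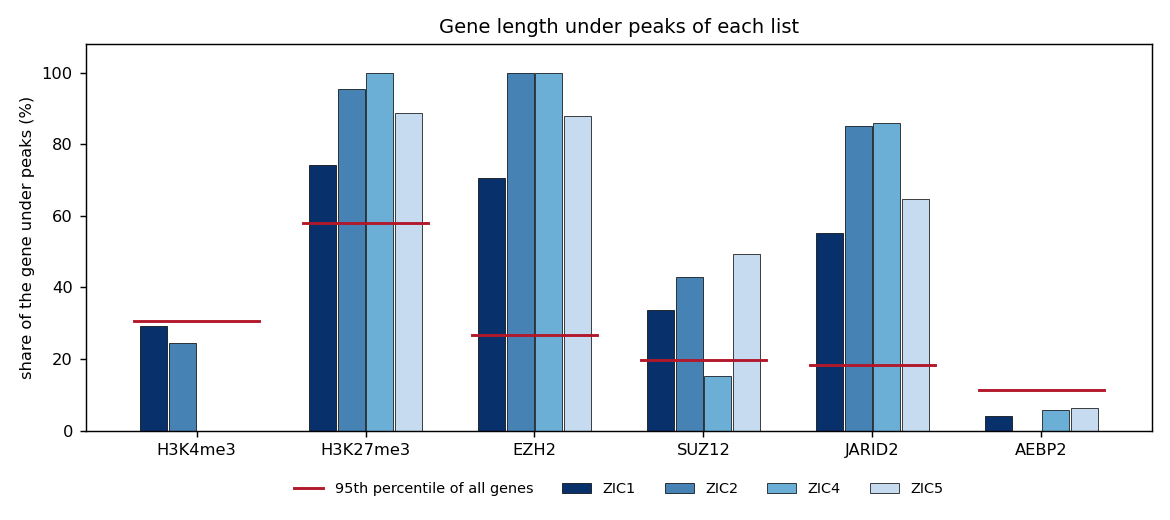
Share of the length of each ZIC gene, in percent, that lay under peaks of each list (bars), with the 95th percentile over all protein-coding genes (red line). EZH2, H3K27me3 and JARID2 bars of all 4 ZIC genes stand above the line, and the AEBP2 bars stand below it.

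Stitched across gaps of up to 3 kb, H3K27me3 formed 1 domain over each pair. The domain at ZIC2 and ZIC5, chr1:144268077-144334666, was 66.6 kb wide with 19 peaks and ranked 34 by width among 8635 domains, whose median width was 2458 bp. The domain at ZIC4 and ZIC1, chr9:11551286-11618859, was 67.6 kb wide with 6 peaks and ranked 32. Nearly all of the chromosome 9 domain, 96.7%, lay under peaks, and 81.5% of the chromosome 1 domain did. The territories were thus of nearly equal width, and the one on chromosome 1 was more broken up.

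EZH2 filled different shares of these domains. Stitched in the same way, EZH2 was 65.1 kb wide at ZIC4 and ZIC1, ranking 5 of 19617, and 36.6 kb wide at ZIC2 and ZIC5, ranking 9. JARID2 was 61.7 kb wide at ZIC4 and ZIC1, ranking 5 of 35526, and 27.8 kb wide at ZIC2 and ZIC5, ranking 11. These widths depend on the gap allowed. With gaps of up to 10 kb, EZH2 spanned 65127 bp at ZIC4 and ZIC1 and 56212 bp at ZIC2 and ZIC5, while JARID2 spanned 65701 bp at ZIC4 and ZIC1 and 98572 bp at ZIC2 and ZIC5. With gaps of up to 1 kb the JARID2 widths were 17488 bp at ZIC4 and ZIC1 and 27812 bp at ZIC2 and ZIC5, so at both other gaps the order of the pairs for JARID2 was reversed. The highest H3K27me3 fold of the chromosome 1 domain, 55.9, lay toward CLYBL and not at either ZIC gene. EZH2 peaks lay under that H3K27me3 peak, the strongest with a fold of 19.3 and its highest point at 144328402, near the H3K27me3 one at 144328357.

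The borders of the territories met few genes. Within 50 kb of ZIC2 and ZIC5 lay ends of PCCA and CLYBL, which encode metabolic enzymes of mitochondria. At the end of PCCA, H3K4me3 had a fold of 11.2, H3K27me3 2.95 and EZH2 16.1. At the end of CLYBL nearer the pair, H3K27me3 had a fold of 55.9, EZH2 19.3 and JARID2 8.08. The highest points of these H3K27me3 and EZH2 peaks lay more than 1 kb from that end. The other end of CLYBL, farther than 50 kb from the pair, had higher folds of 43.1 for EZH2 and 15.5 for JARID2. Neither end of CLYBL had an H3K4me3 peak. Within 50 kb of ZIC4 and ZIC1 the other protein-coding genes were LOC770705 and LOC121113436, and neither had a peak of any of the 6 lists at its ends.

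Peaks of the PRC2 members near the pairs lay mostly in H3K27me3. Within 50 kb of the genes, 57 of 63 JARID2 peaks overlapped H3K27me3, or 90.5%, against 20.4% of the whole list. For SUZ12 it was 40 of 44, or 90.9%, against 13.4%. For EZH2 it was 24 of 29, or 82.8%, against 36.1%, and for AEBP2 30 of 57, or 52.6%, against 4.37%. H3K27me3 itself covered 47.5% of the ZIC2 and ZIC5 neighbourhood and 52.2% of the ZIC4 and ZIC1 one, and the AEBP2 share of 52.6% is close to this cover. All 5 H3K4me3 peaks within 1 kb of the pairs overlapped both H3K27me3 and EZH2, against 17.3% and 71.4% of the whole H3K4me3 list, but EZH2 and H3K27me3 covered between 93.6% and 95.4% of the spans of the pairs.

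Some of the breaks in the EZH2 and H3K27me3 territories lay at nearly the same coordinates. Within the ZIC2 and ZIC5 domain, 5 gaps between neighbouring H3K27me3 peaks matched gaps between EZH2 peaks with both edges within 100 bp. These gaps were between 322 and 357 bp long in H3K27me3 and between 299 and 382 bp in EZH2. One of them lay inside ZIC5, and a JARID2 peak with a fold of 5.57 reached into another, between the genes. In ZIC1 a longer gap ran from 11605619 to 11606612, where no list had a peak, and its left edge was identical in both lists. Whether reads can be placed uniquely in these gaps was not tested. They lower the covered shares of ZIC5 and ZIC1 given above.

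The order of the 4 genes by EZH2 fold was ZIC5, ZIC2, then ZIC1 and ZIC4 with 1 shared value, and no error is available to say which neighbours in this order differ.

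Likeness to other genes was measured as the distance between log2(1 + fold) values at the gene ends over the 6 lists, among genes with a symbol more than 50 kb away. Nearest to ZIC4 were HOXB1, IRX5 and HHEX, at distances of 0.46, 0.49 and 0.59. Nearest to ZIC1 were TFAP2E at 0.99, SCAPER at 1.12 and OTX1 at 1.26. Nearest to ZIC2 was LBX2 at 1.25, followed by PIK3CB and FOXL2 at 1.79 and 1.82, which share 1 EZH2 peak. Nearest to ZIC5 were OLIG2 at 1.52, FOXL2 at 1.54 and GSX1 at 1.69. The partners stood at 2.73 for ZIC2 and ZIC5 and at 2.61 for ZIC1 and ZIC4. The distance includes the EZH2 values that chose the ZIC genes, and the nearest genes were picked from all genes with a symbol.

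Genes that work beside ZIC factors were counted next. Of 20 genes of the neural plate border and neural crest, 17 had H3K27me3 at their ends, against 26% of all genes, and 18 had EZH2, against 59.3%. JARID2 was at 14, against 43.2%, and H3K4me3 at 7, against 57.2%. SUZ12 was at 12, or 60%, against 64.5%, and AEBP2 at 10, or 50%, against 37.1%. The median folds of the 20 genes were 25.9 for H3K27me3, 32.1 for EZH2 and 7.49 for JARID2, with genes without a peak at 0. Over all genes these medians were 0, 2.23 and 0. For SUZ12 the median was 3.12, against 3.04 over all genes. Led by EZH2 fold, the neighbours DLX5 and DLX6 shared a value of 202, GBX2 had 77.8, MSX2 76.2, TWIST1 73.5, TFAP2B 72.8 and PAX7 57.1. PAX3, which acts with ZIC1 at the border of the neural plate in frog embryos, had an H3K27me3 fold of 88.9 and an EZH2 fold of 54.9. The EZH2 folds of ZIC5 and ZIC2 and those of DLX5 and DLX6 were the values above 100 in this comparison, and the EZH2 values chose the ZIC genes.

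Hedgehog and GLI genes were counted in the same way. Of 20 genes, 15 had H3K4me3, against 57.2% of all genes, 11 had H3K27me3, against 26%, and 19 had EZH2, against 59.3%. The median EZH2 fold was 4.65 and the median H3K27me3 fold 4.64. JARID2 was at 15, against 43.2%, SUZ12 at 16, against 64.5%, and AEBP2 at 11, against 37.1%. The EZH2 fold was 80.8 at the ligand gene IHH, 68.2 at the GLI relative GLIS1 and 33.5 at the ligand gene DHH. It was 27.4 at HHIP, which encodes an inhibitor that binds the ligands, 19.7 at the ligand gene SHH and 8.08 at GLI1, a transcription factor gene of the pathway. IHH, SHH and HHIP had H3K27me3 alone, and GLIS1, DHH and GLI1 had both marks. A further 7 of the 20 genes had H3K4me3 alone, a state found at 45.3% of all genes and at none of the 4 ZIC genes. No gene of this list reached the EZH2 fold of any of the 4 ZIC genes, but the EZH2 values chose the ZIC genes, so this order is a description. IHH lay just below the 87.4 of the peak that ZIC1 and ZIC4 share. With highest points required inside the windows, ZIC2 and ZIC4 had no EZH2 peak.

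**Figure D4:**
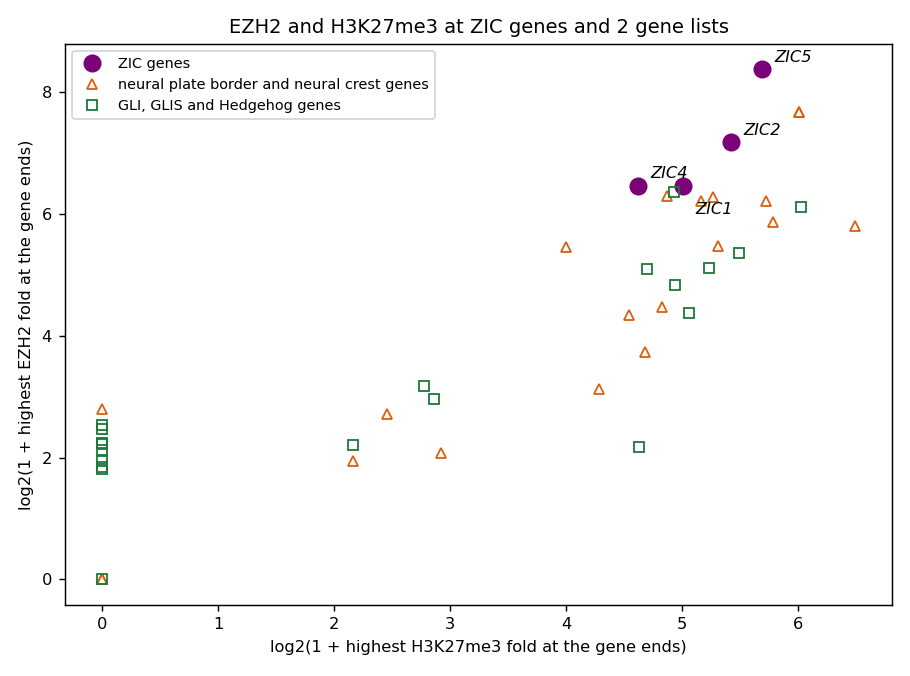
Highest EZH2 fold against highest H3K27me3 fold at the gene ends, each as log2(1 + fold), for the ZIC genes (filled circles), 20 genes of the neural plate border and neural crest (triangles) and 20 GLI, GLIS and Hedgehog genes (squares). Genes without a peak lie at 0, and ZIC5 is the uppermost point with an EZH2 fold of 330 and an H3K27me3 fold of 50.7.

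Markers of the tissue were checked in the same lists, where 57.2% of all protein-coding genes had H3K4me3 at an end and 26% had H3K27me3. All 17 lens genes had H3K4me3 at an end, with folds between 2.04 and 70.2 and a median of 17.2, and 0 of the 17 had H3K27me3. Of 6 matched neural tube markers, 6 had H3K27me3 and 1 had H3K4me3, with EZH2 folds between 61.1 and 232, and of 10 mesenchyme markers 9 had H3K27me3 and 5 had H3K4me3. Of 10 retina and pigment epithelium markers, 5 (50%) had H3K27me3 and 4 (40%) H3K4me3, with H3K4me3 folds between 3.99 and 6.01. Of 8 markers of endothelium and blood, 3 (37.5%) had H3K27me3 and 1 (12.5%) had H3K4me3. The H3K4me3 fold of ZIC1, 4.61, lay between those of the retina markers, and that of ZIC2, 2.27, lay below them and above the lowest lens gene. The part of other cells in the marks at the ZIC genes was not tested.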

How the data were processed

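The authors deposited 1 peak list per antibody for 3 libraries each. Per the submitters' processing notes, MACS2 2.2.7.1, Bowtie2 2.4.1 and Trim Galore 0.6.4 were used with GRCg7b. Pooling of the libraries for peak calling, and any use of IgG as control, are not stated there. The fold of a deposited peak is the authors' ratio over the peak caller's background, it belongs to that peak and was used only within its list. The deposited −log10 q-value is adjusted within the list, with a smallest value near 1.30. The deposited score, which follows the −log10 q, entered no result. Read depth is unknown, and no IgG signal was used, so no background stands beside the values.

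Peaks on assembled chromosomes were used, with 1-based coordinates (Python 3.11.15, pandas 2.3.3). Because the gene table has no strand, promoters were replaced by windows around each end of a gene, reaching 1 kb outward and inward. Overlap meant at least 1 bp. All 4 members, protein-coding neighbours within 50 kb, the 3 nearest genes by likeness and at most 8 genes of a list were named, except items that are not reported here. Members and gene lists were chosen with earlier results of these data known. The overlap routines were tested on simulated data. Promoter and protein sequences were not analysed here.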

Additional observations from a re-analysis of the deposited data

How the results depend on the processing

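No paired analysis was possible because each antibody has 1 peak list and no values per library, and for the same reason no library could be left out. Of 132 recomputed values, 93 stayed within the limits set for them and 39 moved; the cause was not tested beyond what each setting changes by construction. The setting that requires a highest point inside the window and the other gaps for EZH2 and JARID2 were chosen after seeing the data. Of the 4 genes, those marked at their ends became 1 for H3K4me3 and 2 for SUZ12 with windows of 500 bp, 4 for AEBP2 with windows of 2.5 kb or whole genes, 1 for AEBP2 with peaks under a −log10 q of 5 left out or lists cut to equal size, 2 for SUZ12 at equal list size, and 2 for EZH2 and for SUZ12 with highest points inside the window. In the percentage of genes with a higher fold, a gene without a peak counted as exceeded by every gene with one. The median of this percentage over the 4 genes stood at 0.569 (EZH2), 0.656 (JARID2), 4.0 (H3K27me3), 22.5 (SUZ12), 31.9 (AEBP2) and 56.6 (H3K4me3). With windows of 500 bp it was 55.1 for H3K4me3, 33.5 for SUZ12, 1.23 for JARID2 and 24.1 for AEBP2. With windows of 2.5 kb the values were 0.353 (JARID2), 0.451 (EZH2), 14.95 (SUZ12), 18.9 (AEBP2) and 58.1 (H3K4me3). With fold times width the values were 0.221 (EZH2), 0.499 (JARID2), 1.62 (H3K27me3), 15.8 (SUZ12) and 28.7 (AEBP2). With highest points inside the window the values were 28.3 (EZH2), 4.83 (H3K27me3), 30.0 (AEBP2), 35.9 (SUZ12) and 53.9 (H3K4me3). That EZH2 value lies between those of ZIC1 and ZIC5, which kept a peak, and those of ZIC2 and ZIC4, which had none. Among genes with a symbol the median was 65.6 for H3K4me3, 4.33 for H3K27me3, 26.0 for SUZ12 and 35.7 for AEBP2. Within 20 kb in place of 50 kb, there were 17 H3K27me3, 18 EZH2 and 28 AEBP2 peaks, against 26, 29 and 57. Of the Hedgehog list, 4 genes in place of 11 had AEBP2 at a −log10 q of at least 5. Counts of marked genes under other settings are given without the share of all genes under the same setting. At ZIC2 and ZIC5, gaps of up to 10 kb gave 56212 bp for EZH2 and 98572 bp for JARID2, and at ZIC4 and ZIC1 gaps of up to 1 kb gave 17488 bp for JARID2. H3K27me3 domain widths stayed within a factor of 1.5 under the other gaps and the stricter q.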

Other observations

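The strongest EZH2 peaks differed in width. The peak over the HOXD genes and EVX2, with a fold of 291, was 41166 bp wide, and the GSX1 peak, with a fold of 278, was 6355 bp wide. The ZIC5 peak, at 6146 bp, was close in width to the GSX1 peak, and the ZIC4 and ZIC1 peak, at 44831 bp, to the HOXD peak.

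Non-coding genes within the ZIC4 and ZIC1 territory also lay under the same peaks. LOC112533010, inside ZIC4, had a JARID2 fold of 33.6 at its ends, the highest JARID2 value of the pair, and LOC124417081 had 31.9. The highest points of these peaks, 11592742 and 11577128, lay more than 1 kb from the ends of these genes. LOC107054107, which begins beyond the outer end of ZIC1, had an EZH2 fold of 84.1 and no SUZ12 peak at its ends. The highest point of that EZH2 peak, 11608394, also lay more than 1 kb from its ends.

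The SUZ12 peak beyond the outer end of ZIC5 was among the widest of its list. It was 2171 bp wide, ranked 52 by width of 54487 peaks and had a fold of 6.63. EZH2 and H3K27me3 peaks over the same stretch had their highest points at the same base, 144313262, with folds of 75.8 and 23.8.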
